A study of Homo sapiens with 6 samples.

Results

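The 10 genes described here encode insulin-like growth factor (IGF) binding proteins (IGFBP2 to IGFBP7), the receptors IGF1R, IGF2R and INSR, and the receptor substrate IRS1. They were taken by symbol from the deposited expression tables, where all 10 of them are among the 23284 listed gene symbols. The material is HEC-1B, an established human endometrial carcinoma line, in 6 RNA-seq libraries that form 3 groups of 2. The high-potential accelerated group is HEC-1B labelled high ALDH potential and "ALDH-high accel". The parental accelerated group is HEC-1B with the label "ALDH-high accel" alone (parental is used here for cells not labelled high potential), and the high-to-low group is HEC-1B labelled "ALDH-high to low". ALDH is aldehyde dehydrogenase, and cell sorting by ALDH1A1 served to tell whether passage into the ALDH1A1-high state was accelerated. No treatment, culture time or origin of the high-potential cells (a clone or a pool) is given in the sources used here, and there is no high-potential group labelled high to low. Differences of the high-potential from the high-to-low libraries therefore mix 2 labels that cannot be told apart. The library descriptions also carry leading digits that no source explains. Replicate 2 of each accelerated group has other digits than the remaining libraries. The digits are thus uneven between the high-to-low group and each accelerated group, and even between the accelerated groups.

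IGF1 and IGF2 are secreted growth factors that signal through the receptor tyrosine kinase IGF1R and, for IGF2, through one isoform of the insulin receptor INSR, after which IRS1 and its relatives recruit PI3-kinase. IGF2R, also the mannose 6-phosphate receptor, takes up IGF2 for degradation without such a kinase. The binding proteins hold IGFs outside the cell, where they can block or prolong ligand action, and several also act on cells without IGFs. In the endometrium the system is known for its part in the growth of the epithelium and in the decidual change of the stroma.

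Depth was similar between libraries: relative to high-potential replicate 1 it lay between 0.807 and 1.07, and a single fragment on 1 kilobase of transcript equalled 0.0929 to 0.124 FPKM. FPKM counts fragments per transcript length, scaled between libraries in a way that the sources used here do not name. ALDH1A1, the gene named in the design, measured 352.5 and 303.6 FPKM among high-potential libraries, 26.7 and 316.9 FPKM among parental accelerated libraries and 28.4 and 9.44 FPKM among high-to-low ones. Parental accelerated replicate 1 thus lay within the high-to-low range, and the member differences from parental accelerated cells are also given without it. Of 6 epithelial markers 5 reached 1 FPKM, and CDH1 stayed at or below 0.0868. Of 8 fibroblast markers THY1 alone reached 1 FPKM (8.04 to 313.9), while COL3A1 and DCN are listed at 0 in every library. WT1 was the only 1 of 4 decidual stromal markers to reach 1 FPKM. None of the 4 endothelial markers reached 1 FPKM.

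The promoters of 2 binding protein genes are shown because their transcripts lead the sum of the binding proteins in different groups, IGFBP3 in the high-potential cells and IGFBP6 in both parental groups. Each is the run of 250 bases before the annotated gene start, from RefSeq (GRCh38.p14, a later build than the files' hg19), which held an entry for 9 of the 10 genes. IGFBP3 is on the minus strand at chr7:45921273-45921522, and IGFBP6 on the plus strand at chr12:53097417-53097666. Capitals mark GGGCGG (the GC box) on either strand, written CCGCCC where it lies on the opposite one.
IGFBP3: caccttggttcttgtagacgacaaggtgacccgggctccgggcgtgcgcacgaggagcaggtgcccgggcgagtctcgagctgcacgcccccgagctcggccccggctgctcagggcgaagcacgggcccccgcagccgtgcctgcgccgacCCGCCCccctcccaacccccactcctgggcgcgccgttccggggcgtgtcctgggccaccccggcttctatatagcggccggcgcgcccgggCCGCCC
IGFBP6: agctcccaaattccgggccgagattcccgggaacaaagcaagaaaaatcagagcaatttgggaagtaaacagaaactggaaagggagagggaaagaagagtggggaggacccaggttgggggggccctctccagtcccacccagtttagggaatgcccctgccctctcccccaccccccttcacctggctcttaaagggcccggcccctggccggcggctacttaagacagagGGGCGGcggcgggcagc
The IGFBP3 window holds 2 such matches and has a GC content of 76.0%, above 91.7% of the 27305 promoter windows. IGFBP6 holds 1 match at a GC content of 61.2%, above 57.9% of windows. GGGCGG on either strand occurs in 42.3% of all windows of this length. Searched on both strands, the exact letters TATAAA (used here for the TATA box) were found in neither window and in 11.1% of all windows. CCAAT was likewise in neither and in 33.0% of all, and the AP-1 motif TGANTCA in neither and in 6.60% of all. Variant spellings were not searched, so a TATA box of other letters is not excluded, and the IGFBP3 window holds tatata near its end. Which start these cells use was not measured.

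IGFBP3, the binding protein that carries most IGF in blood, had the largest difference of the tested members between the high-potential and the other libraries. Its level was 206.4 and 388.9 FPKM in high-potential libraries, against 4.71 and 17.3 FPKM in parental accelerated and 4.75 and 6.22 FPKM in high-to-low libraries. Both high-potential libraries lay above all 4 others, and the parental accelerated libraries spanned the high-to-low range. Within a library this placed IGFBP3 above 97.6 and 98.9% of the genes with a value above 0 in the high-potential cells, above 38.8 and 63.6% in the parental accelerated and above 38.7 and 44.6% in the high-to-low cells. The mean was 297.7 FPKM (SD 129.0, n = 2) in high-potential, 11.0 (SD 8.89, n = 2) in parental accelerated and 5.49 (SD 1.04, n = 2) in high-to-low cells. These means differ by 27.1-fold for high-potential over parental accelerated and by 54.2-fold for high-potential over high-to-low.

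**Figure D1:**
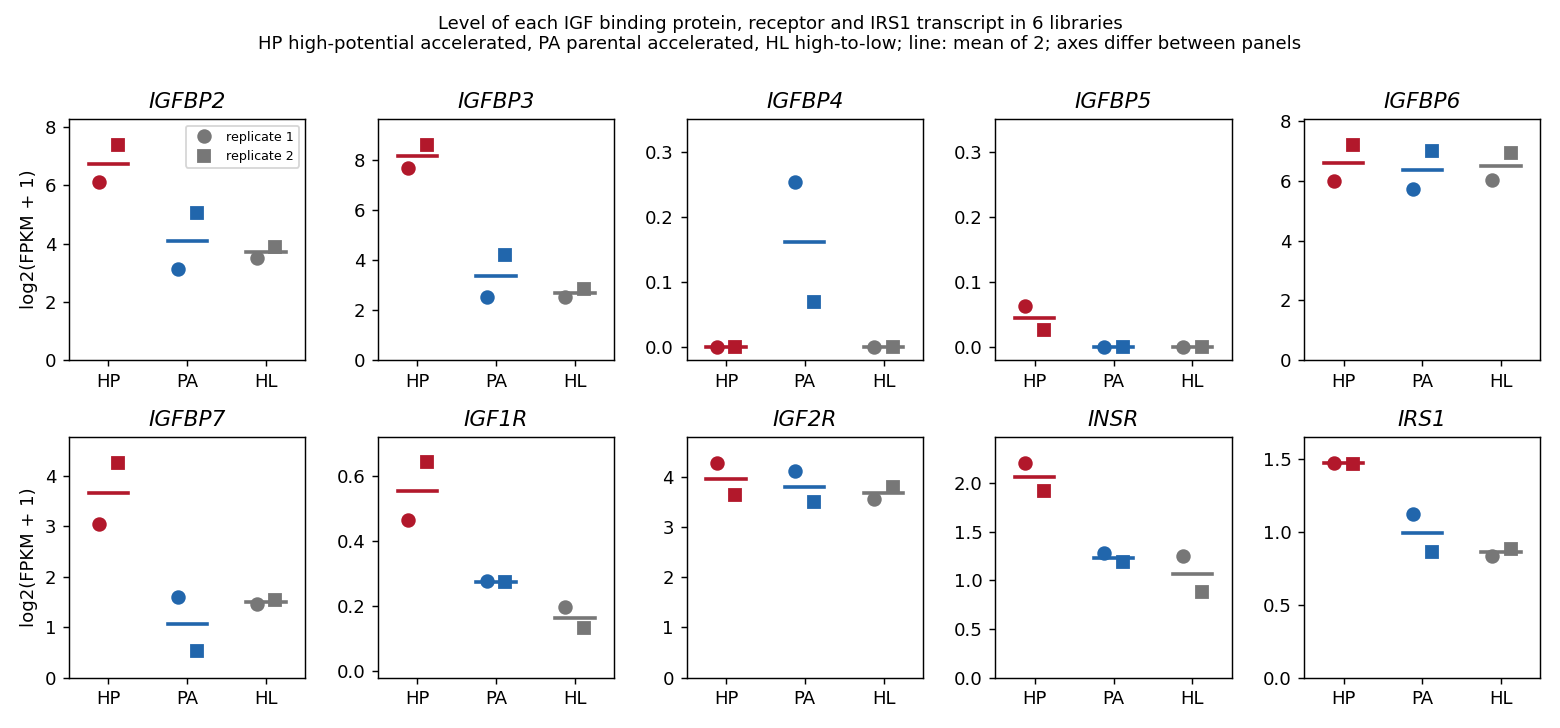
Level of each of the 10 transcripts as log2(FPKM + 1), with high-potential accelerated (HP, red), parental accelerated (PA, blue) and high-to-low (HL, grey) libraries; circles are replicate 1, squares replicate 2 and lines group means, and axes differ between panels. IGFBP2, IGFBP3, IGFBP7, IGF1R, INSR and IRS1 have both HP points above all other points, while IGFBP6 and IGF2R do not.

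On the log2(FPKM + 1) scale, on which low genes differ by less than their true fold, IGFBP3 rose in high-potential over parental accelerated cells by 4.80 (SE 0.572, 95% interval 3.41 to 6.18, limma adjusted p = 0.0348). Over high-to-low cells it rose by 5.46 (SE 0.572, 95% interval 4.08 to 6.85, limma adjusted p = 0.0237). It was the only member to pass in either comparison in the fit with no replicate block: 1 of the 7 tested members passed against parental accelerated cells, where 0.494% of 12135 tested genes did, and 1 of 7 against high-to-low cells, where 0.799% did. Both comparisons use the same high-potential libraries. The sizes ranked 21st and 13th among all tested genes.
Calls at this sample size rested on single libraries. Against parental accelerated cells the limma adjusted p was 0.155 when high-potential replicate 1 was left out and 0.338 when replicate 2 was. It was 0.0708 and 0.0762 on leaving out high-to-low replicate 1 or 2, which enter through the shared spread. Without parental accelerated replicate 1 the difference was 3.96 (limma adjusted p = 0.0481), and without replicate 2 it was 5.64 (limma adjusted p = 0.0272). Against high-to-low cells the limma adjusted p was 0.116 or 0.241 on leaving out high-potential replicate 1 or 2 and 0.122 or 0.120 on leaving out high-to-low replicate 1 or 2, with differences between 5.01 and 5.92.

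IGFBP2, a binding protein with a preference for IGF2, was the next most abundant in the high-potential cells. It was 68.3 and 166.3 FPKM there, against 7.68 and 32.4 FPKM in parental accelerated and 10.5 and 13.7 FPKM in high-to-low libraries. The high-potential libraries lay above all others, and parental accelerated replicate 2 lay above its replicate 1 and both high-to-low libraries. The difference was 2.66 against parental accelerated cells (SE 0.683, limma adjusted p = 0.169) and 3.05 against high-to-low cells (SE 0.683, limma adjusted p = 0.10). Neither passed. Without parental accelerated replicate 1 the first was 1.69 (limma adjusted p = 0.315) and the second had a limma adjusted p of 0.0475, and without replicate 2 the first was 3.63 (limma adjusted p = 0.111). With the replicate number as a block both passed (limma adjusted p = 0.0264 and 0.0164). The 95% intervals were 1.01 to 4.31 and 1.40 to 4.71.

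IGFBP7, a secreted protein of the same fold family that binds IGFs weakly and insulin, was 7.26 and 18.2 FPKM in high-potential libraries, against 2.03 and 0.434 FPKM in parental accelerated and 1.76 and 1.90 FPKM in high-to-low libraries. The groups did not overlap on the high-potential side, and parental accelerated replicate 2 was the lowest library of all. The differences, 2.60 (SE 0.504, limma adjusted p = 0.106) against parental accelerated and 2.16 (SE 0.504, limma adjusted p = 0.106) against high-to-low, did not pass. The first was 3.14 without parental accelerated replicate 1 (limma adjusted p = 0.130). At the depth of these libraries the parental accelerated values correspond to about 27.0 and 5.65 fragments, against about 103.9 and 210.5 in high-potential libraries.

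IGFBP6, a binding protein with a strong preference for IGF2, was high everywhere and overlapped between groups. It was 63.1 and 145.4 FPKM in high-potential, 51.3 and 126.3 FPKM in parental accelerated and 64.2 and 121.7 FPKM in high-to-low libraries. In each group replicate 2 was the higher library. The differences were 0.25 for high-potential over parental accelerated (95% interval -1.16 to 1.65), 0.11 for high-potential over high-to-low (-1.29 to 1.52) and -0.13 for parental accelerated over high-to-low (-1.54 to 1.27). Without parental accelerated replicate 1 the first was -0.39 and the third 0.51. These intervals come from the fit with no replicate block, where the SE was 0.580; it was 0.145 with the block, under which no IGFBP6 difference passed either.

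IGFBP4 and IGFBP5 were at the edge of detection and entered no test. IGFBP4, which inhibits IGF action until the protease PAPPA cleaves it, was 0.193 and 0.0493 FPKM in parental accelerated libraries, about 3.95 and 0.989 fragments, and is listed at 0 in the other 4. A count of 0 allows up to 0.136 and 0.169 FPKM in high-potential and 0.127 and 0.145 FPKM in high-to-low libraries (3 fragments, counting error only). IGFBP5, a binding protein of the extracellular matrix, was 0.0452 and 0.0187 FPKM in high-potential libraries, about 2.82 and 0.939 fragments, and is listed at 0 in the other 4, which allows up to 0.0448 to 0.0529 FPKM. No difference in either gene was detectable at this depth. IGFBP5 is the coding neighbour of IGFBP2 on chromosome 2, so these neighbours were expressed at very different levels in every library.

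Within a library, the make-up of the binding protein transcripts separated the high-potential cells from the rest. The 6 genes summed to 345.1 and 718.9 FPKM in high-potential, 65.9 and 176.5 FPKM in parental accelerated and 81.2 and 143.5 FPKM in high-to-low libraries. IGFBP3 made up 59.8 and 54.1% of that sum in high-potential libraries, against 7.15 and 9.79% in parental accelerated and 5.85 and 4.34% in high-to-low libraries. IGFBP6 made up 18.3 and 20.2% in high-potential libraries, against 77.8 and 71.6% in parental accelerated and 79.1 and 84.8% in high-to-low libraries. The largest share thus belonged to IGFBP3 in both high-potential libraries and to IGFBP6 in the 4 parental ones. The share of IGFBP2 varied less, at 19.8 and 23.1% in high-potential, 11.7 and 18.4% in parental accelerated and 12.9 and 9.54% in high-to-low libraries. The ratio of IGFBP3 to IGFBP2, which needs no scaling between libraries, was 3.02 and 2.34 in high-potential, 0.613 and 0.533 in parental accelerated and 0.454 and 0.455 in high-to-low libraries. These ratios did not overlap between any of the groups, while the levels of either gene overlapped between the parental groups. No test was run on shares and ratios.

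**Figure D2:**
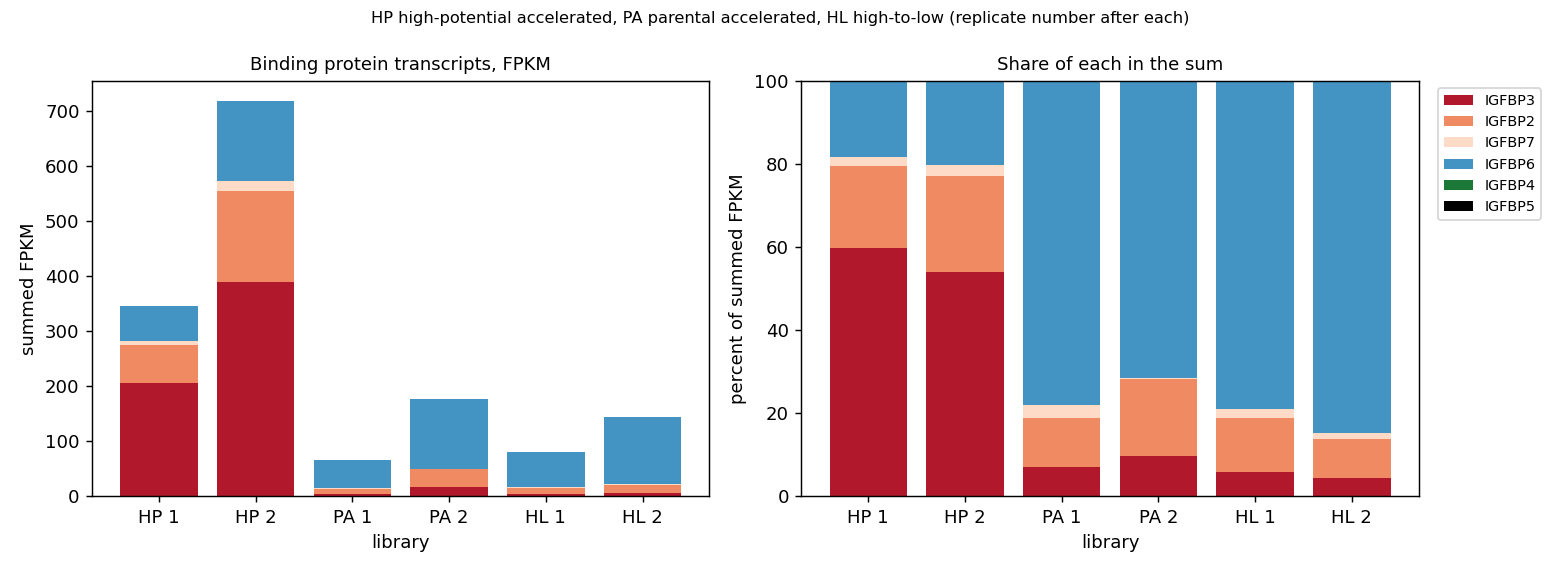
Summed FPKM (left) and percent of the sum (right) of the 6 binding protein transcripts in each library, high-potential accelerated (HP), parental accelerated (PA) and high-to-low (HL), with the replicate number. IGFBP3 (red) takes 59.8 and 54.1% in HP 1 and HP 2 and at most 9.79% elsewhere, where IGFBP6 (blue) takes at least 71.6%.

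Among the receptors, INSR was more abundant than IGF1R per length in every library. INSR was 3.63 and 2.77 FPKM in high-potential libraries, against 1.43 and 1.28 FPKM in parental accelerated and 1.37 and 0.838 FPKM in high-to-low libraries. Both high-potential libraries lay above the other 4, and the parental groups overlapped. The differences, 0.83 (SE 0.256, limma adjusted p = 0.219) over parental accelerated and 1.0 (SE 0.256, limma adjusted p = 0.125) over high-to-low, did not pass. The first was 0.87 without parental accelerated replicate 1, and the second passed with the replicate block (limma adjusted p = 0.0498). IGF1R was 0.379 and 0.562 FPKM in high-potential, 0.213 and 0.208 FPKM in parental accelerated and 0.146 and 0.0969 FPKM in high-to-low libraries. These levels did not overlap between any of the groups, but no library reached 1 FPKM and the gene entered no test. With no filter on low values the difference was 0.28 over parental accelerated (limma adjusted p = 0.265) and 0.39 over high-to-low (limma adjusted p = 0.138) for the high-potential cells, and 0.11 for parental accelerated over high-to-low (limma adjusted p = 1). The ratio of INSR to IGF1R was 9.59 and 4.94 in high-potential, 6.73 and 6.15 in parental accelerated and 9.42 and 8.65 in high-to-low libraries, with the first group spanning the others.

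IGF2R was the most abundant receptor transcript, at 18.4 and 11.4 FPKM in high-potential, 16.3 and 10.2 FPKM in parental accelerated and 10.8 and 12.9 FPKM in high-to-low libraries. All 3 groups overlapped, and the differences were 0.15 for high-potential over parental accelerated (95% interval -0.61 to 0.92) and 0.28 for high-potential over high-to-low (-0.49 to 1.04). Without parental accelerated replicate 1 the first was 0.46, and without replicate 2 it was -0.16. IGF2R was 5.05 and 4.11 times INSR in high-potential libraries, against 11.4 and 7.99 times in parental accelerated and 7.85 and 15.4 times in high-to-low libraries. The ratio was lower in both high-potential libraries than in the other 4.

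IRS1, the adaptor that links both kinase receptors to PI3-kinase, was 1.78 and 1.76 FPKM in high-potential libraries, against 1.18 and 0.820 FPKM in parental accelerated and 0.784 and 0.843 FPKM in high-to-low libraries. Both high-potential libraries lay above the other 4. The gene reached 1 FPKM in 3 libraries, so it passed the filter mostly through the high-potential group. Its differences, 0.47 (SE 0.235, limma adjusted p = 0.432) over parental accelerated and 0.61 (SE 0.235, limma adjusted p = 0.248) over high-to-low, did not pass. The first was 0.60 without parental accelerated replicate 1.

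In order of mean level, IGFBP3, IGFBP2 and IGFBP6 led in the high-potential cells at 297.7, 117.3 and 104.2 FPKM, followed by IGF2R at 14.9, IGFBP7 at 12.7, INSR at 3.20, IRS1 at 1.77 and IGF1R at 0.470. IGFBP2 and IGFBP6 overlapped there, as did IGF2R and IGFBP7. In parental accelerated cells the order was IGFBP6 at 88.8, IGFBP2 at 20.0, IGF2R at 13.3, IGFBP3 at 11.0, INSR at 1.36, IGFBP7 at 1.23, IRS1 at 1.0 and IGF1R at 0.210 FPKM. IGFBP2, IGF2R and IGFBP3 overlapped there, and IGFBP7 overlapped both INSR and IRS1, which did not overlap each other. In high-to-low cells it was IGFBP6 at 93.0, IGFBP2 at 12.1, IGF2R at 11.8, IGFBP3 at 5.49, IGFBP7 at 1.83, INSR at 1.11, IRS1 at 0.814 and IGF1R at 0.121 FPKM, with IGFBP2 overlapping IGF2R and INSR overlapping IRS1.

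Counted over the tested members, 7 of 7 differences had a positive sign for high-potential over parental accelerated cells, where 6119 of 12135 tested genes did, and the median difference was 0.83 against 0.0050 over all tested genes. The libraries lay apart with the high-potential side higher in 5 of 7 members, where 21.1% of tested genes did. For high-potential over high-to-low cells the sign was positive in 7 of 7 members and in 5972 of 12135 genes, with a median of 1.0 against -0.010, and 5 of 7 members lay apart on the higher side, where 24.7% of genes did. These counts leave out IGFBP4, IGFBP5 and IGF1R, and describe a set chosen with earlier results known. They include IRS1, which passed the filter mostly through the high-potential group, so its place in them was partly set by the filter.

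**Figure D3:**
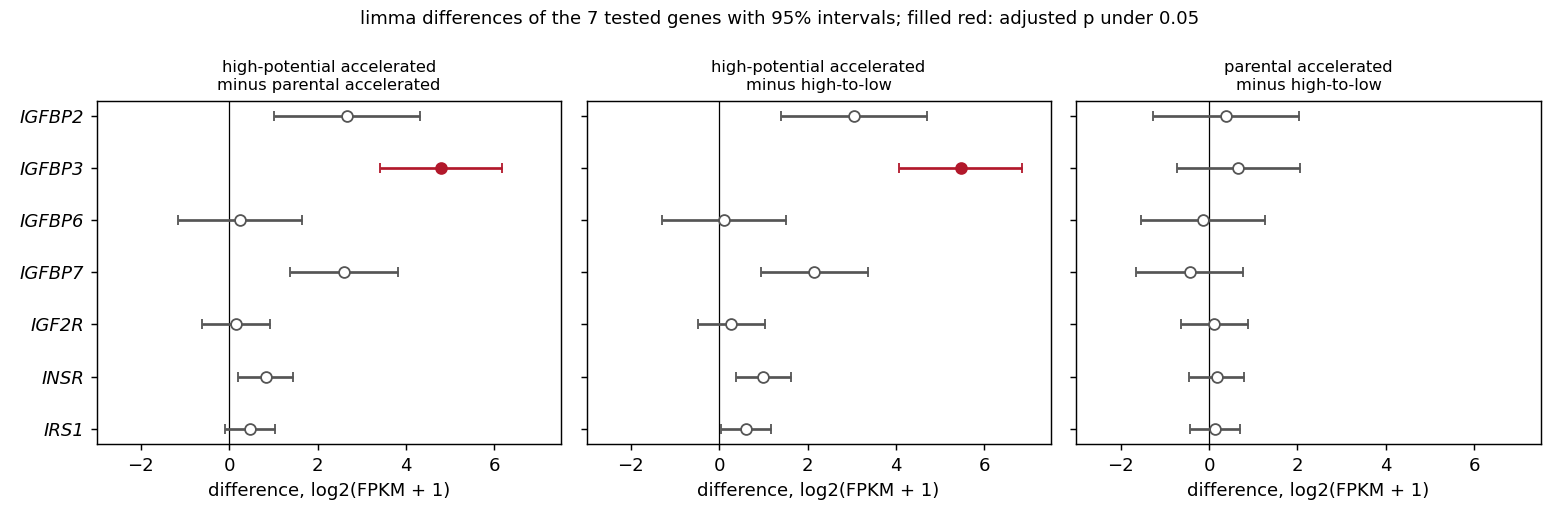
Differences of the 7 tested genes on the log2(FPKM + 1) scale with 95% intervals from limma, in 3 panels for the 3 comparisons; filled red marks an adjusted p under 0.05. IGFBP3 alone is filled, at 4.80 and 5.46, and in the panel of parental accelerated minus high-to-low every interval includes 0.

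Set against high-to-low cells, parental accelerated cells had no member that passed limma's adjusted threshold, where 0.0165% of tested genes did. An unadjusted p under 0.05 was found for 0 of 7 members and 0.972% of tested genes. IGFBP3 differed by 0.67 (SE 0.572, 95% interval -0.72 to 2.05), IGFBP2 by 0.39 (-1.26 to 2.05) and IGFBP7 by -0.44 (-1.66 to 0.78). None of the 7 tested members had libraries lying apart, where 24.1% of tested genes did. IGFBP3 and IGFBP2 were highest among the 4 parental libraries in parental accelerated replicate 2 and lowest in replicate 1. These replicates differed in ALDH1A1 (316.9 and 26.7 FPKM) and in the leading digits of their descriptions. High-to-low replicate 2 had less ALDH1A1 (9.44 FPKM) than parental accelerated replicate 1 but more IGFBP3 (6.22 against 4.71 FPKM). With a term for the digits the difference of IGFBP3 was 0.018 and that of IGFBP2 -0.41. Without parental accelerated replicate 2 the difference of IGFBP3 was -0.17 and that of IGFBP2 -0.58, and without its replicate 1 they were 1.50 and 1.36. Which of these goes with the levels was not tested.

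The libraries within a group also differed, and for IGFBP2, IGFBP3 and IGFBP6 in a shared direction. IGFBP6 was higher in replicate 2 than in replicate 1 by 1.19 in high-potential, 1.28 in parental accelerated and 0.91 in high-to-low cells on the log2(FPKM + 1) scale, which is more than 98.9, 99.0 and 98.4% of kept genes. IGFBP2 was higher by 1.27, 1.94 and 0.36, and IGFBP3 by 0.91, 1.68 and 0.33 in the same order of groups. For IGFBP2 this is more than 99.1, 99.8 and 81.9% of kept genes, and for IGFBP3 more than 97.9, 99.7 and 79.9%. IGFBP7 was higher by 1.22 in high-potential replicate 2 but lower in parental accelerated replicate 2 (-1.08), with 0.07 in high-to-low cells. INSR was lower in replicate 2 in all 3 groups (-0.30, -0.09 and -0.37), with 23.9, 42.0 and 20.3% of kept genes below it. The median of all kept genes lay between -0.00183 and 0 in these differences. No source says what the replicate numbers share. In the high-potential and parental accelerated groups the 2 replicates differ in the leading digits of the library descriptions. The high-to-low replicates have the same digits. The gaps of IGFBP2 and IGFBP3 were smallest in high-to-low cells, while IGFBP6 had a large gap in all 3 groups. Whether the digits bear on these gaps was not tested. The range of IGFBP6 between replicates exceeded every difference of it between groups.

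**Figure D4:**
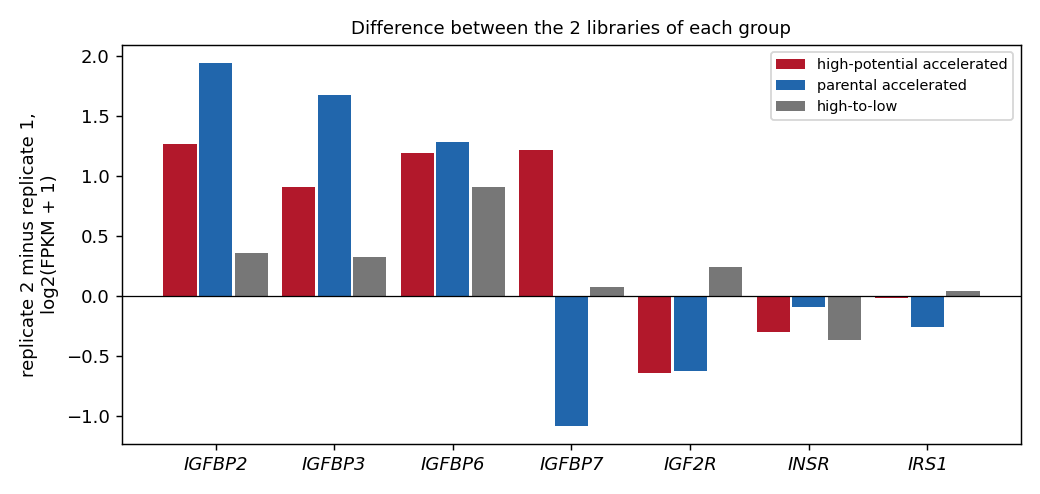
Replicate 2 minus replicate 1 on the log2(FPKM + 1) scale for the 7 tested genes in high-potential accelerated (red), parental accelerated (blue) and high-to-low (grey) cells. IGFBP6 bars stand at 1.19, 1.28 and 0.91, and those of IGFBP2 and IGFBP3 are positive in all groups.

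The genes of 10096 whose pattern over the 6 libraries was most like that of IGFBP3 were LOXL4 and DOK7 (Pearson r of 0.999 each) and ZNF596 (0.998). These correlations are a description over 6 libraries that form 3 groups, and mostly carry the gap between high-potential and other libraries. LOXL4, a lysyl oxidase of the extracellular matrix, was 15.2 and 21.2 FPKM in high-potential, 1.10 and 3.45 FPKM in parental accelerated and 0.982 and 1.52 FPKM in high-to-low libraries. DOK7, an adaptor known from the neuromuscular junction, was 7.52 and 9.94 FPKM in high-potential, 0.291 and 1.62 FPKM in parental accelerated and 0.288 and 0.455 FPKM in high-to-low libraries. ZNF596 moved over a much narrower range, 4.06 and 4.42 FPKM in high-potential against 2.35 to 2.95 FPKM in the other libraries.

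The rest of the pathway was read from 8 lists of 51 genes, of which 36 were tested and 6 are listed at 0 in all libraries. The ligands were near 0: IGF1 reached at most 0.253 FPKM, IGF2 at most 0.122 FPKM, and INS is listed at 0 throughout. The comparisons are taken in the order high-potential over parental accelerated, high-potential over high-to-low and parental accelerated over high-to-low. Of the 36 genes 0 passed in any of the 3 (limma, adjusted p), where 0.494, 0.799 and 0.0165% of all tested genes did. At such shares 0 calls among 36 genes does not set the pathway apart from other genes. An unadjusted p under 0.05 was found for 4, 7 and 1 of the 36, and for 14.3, 18.4 and 0.972% of all tested genes. Signs were mixed, with 19 of 36 higher (median 0.05) for high-potential over parental accelerated and 22 of 36 higher (median 0.20) for high-potential over high-to-low.

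IGFBP1, the binding protein of decidual stroma and liver and the coding neighbour of IGFBP3 on chromosome 7, was 3.47 and 4.45 FPKM in high-potential libraries, against 1.96 and 0.0693 FPKM in parental accelerated and 1.06 and 0.944 FPKM in high-to-low libraries. The high-potential libraries lay above the others, but the differences of 1.47 (SE 0.476, limma adjusted p = 0.239) and 1.30 (SE 0.476, limma adjusted p = 0.229) did not pass. The first was 2.21 without parental accelerated replicate 1 (limma adjusted p = 0.0761) and 0.74 without replicate 2 (limma adjusted p = 0.345). Of the 4 decidual stromal markers, PRL and HAND2 are listed at 0 in every library and LEFTY2 reached at most 0.0902 FPKM, while WT1 was 1.31 and 2.18 FPKM in high-potential libraries, against 1.10 and 0.405 FPKM in parental accelerated and 1.07 and 0.657 FPKM in high-to-low libraries. WT1 was thus higher in both high-potential libraries than in the other 4, and its part in the IGFBP1 levels was not tested. IGFBPL1, a related secreted protein, was 3.70 and 5.35 FPKM in high-potential, 3.20 and 1.69 FPKM in parental accelerated and 3.35 and 2.97 FPKM in high-to-low libraries.

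The most abundant genes of the other lists follow. CYR61 and CTGF, matricellular proteins once counted among IGFBP relatives, were 102.4 and 179.7 and 210.1 and 161.3 FPKM in high-potential libraries. In parental accelerated libraries CYR61 was 232.0 and 200.1 and CTGF 142.9 and 265.2 FPKM, and in high-to-low libraries CYR61 was 186.2 and 161.2 and CTGF 127.1 and 97.9 FPKM. Cathepsin D (CTSD), a lysosomal protease able to cleave binding proteins, was 307.1 and 314.8 FPKM in high-potential, 195.5 and 135.7 FPKM in parental accelerated and 186.9 and 217.3 FPKM in high-to-low libraries, with the high-potential libraries highest (limma adjusted p = 0.165 against parental accelerated). STC2, an inhibitor of PAPPA, was 7.08 and 1.62 FPKM in high-potential, 9.53 and 4.07 FPKM in parental accelerated and 11.0 and 8.84 FPKM in high-to-low libraries, while PAPPA itself stayed at or below 0.0722 FPKM. TMEM219, described as a cell surface receptor for IGFBP3, was 101.6 and 78.0 FPKM in high-potential, 135.9 and 74.1 FPKM in parental accelerated and 142.8 and 106.3 FPKM in high-to-low libraries. FURIN, the protease that matures the kinase receptors, was 12.2 and 13.2 FPKM in high-potential, 5.49 and 11.4 FPKM in parental accelerated and 6.48 and 4.28 FPKM in high-to-low libraries.

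Downstream genes were present in all groups. The adaptor GRB2 was 79.2 to 91.2 FPKM over the 6 libraries and SHC1 39.0 to 61.2 FPKM. AKT1, the kinase below PI3-kinase, was 107.5 and 78.1 FPKM in high-potential, 62.4 and 87.7 FPKM in parental accelerated and 72.9 and 62.7 FPKM in high-to-low libraries. RHEB, the GTPase that activates mTOR, was 48.8 and 66.7 FPKM in high-potential, 46.1 and 45.2 FPKM in parental accelerated and 39.0 and 61.5 FPKM in high-to-low libraries. The IGF2 mRNA-binding proteins IGF2BP2 and IGF2BP3 were 17.2 to 31.0 and 27.8 to 36.6 FPKM over the 6 libraries, although IGF2 itself was near 0.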

How the data were processed

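Per the labels' protocols, a miRNeasy kit gave total RNA, SMART-Seq v4 the cDNA and a Nextera kit the libraries. The authors deposited 1 FPKM value per gene symbol and library; the submitters' processing notes name TopHat2 2.0.13, Cuffnorm 2.2.1 and hg19. The sources used here name neither annotation nor scaling. The stated kits do not mark strand, so antisense overlaps cannot be told apart.

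FPKM is not a count. Genes reaching 1 FPKM in 2 or more libraries (12135, including 7 members) entered 1 limma model (limma 3.58.1, R 4.3.3) of log2(FPKM + 1) with a variance trend over all 6 libraries and 3 residual degrees of freedom. Calls had a two-sided Benjamini-Hochberg adjusted p under 0.05 over all tested genes. No source says that replicates are separate cultures, so p-values rest on a spread among libraries that may be technical. With 2 libraries a group, that spread is the limit of precision.

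Relative depth came from genes under 0.3 FPKM sharing a ratio within 3%. Fragments behind a value are approximate, from the principal GENCODE transcript length. Named genes are the 10 members, in each pathway list the 2 genes of highest mean, genes called in a list, ALDH1A1, and for a called member the 3 most like patterns among genes with a mean of at least 3 FPKM. No label says that replicate numbers pair the libraries, but differences between replicates 1 and 2 correlated across genes in all 3 pairs of groups (Pearson r of 0.187, 0.158 and 0.281), so values from a fit with the number as a block are given where they change a call. Members and lists were chosen with earlier results of these data known. The limma step was checked on simulated data. Alternatives changed the pseudocount, filter, scaling, variance model, libraries and covariates.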

Additional observations from a re-analysis of the deposited data

How the results depend on the processing

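Of 18 alternatives, the direction of IGFBP3 for high-potential over the other groups held in all, and its call held in 11 (against parental accelerated, adjusted p 0.0019 to 0.338) and 13 (against high-to-low, 0.00303 to 0.241). The number of members called against parental accelerated cells was 1, but 0 with a pseudocount of 0.1, with no filter and with only the groups compared in the fit, and 2 with the term for the replicate number or for the leading digits of the library descriptions, and 0 to 1 without 1 library. Against high-to-low cells it was 1, but 0 with no filter, 3 with the replicate block and 2 with the term for digits, and 0 to 2 without 1 library. The causes were not tested. The replicate block is a fit with the number in the titles as a term. It added IGFBP2 to the calls in both comparisons (limma adjusted p = 0.0264 and 0.0164) and INSR against high-to-low cells (limma adjusted p = 0.0498). It changed no other call of a member. Over all genes the block gave 546 calls in place of 60 against parental accelerated cells (186 higher, 360 lower, in place of 35 and 25) and 944 in place of 97 against high-to-low cells (301 higher, 643 lower, in place of 48 and 49).

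Within a comparison, signs turned only for members that did not pass in it. With the term for digits, IGFBP6 was -0.50 for high-potential over high-to-low and IGFBP2 -0.41 for parental accelerated over high-to-low. The same term lowered the differences for high-potential over high-to-low to 4.82 for IGFBP3 and 2.25 for IGFBP2. It left those over parental accelerated cells at 4.80 and 2.66. Without 1 library, differences for high-potential over parental accelerated spanned -0.39 to 0.89 for IGFBP6 and -0.17 to 0.48 for IGF2R, and over high-to-low -0.48 to 0.71 and -0.046 to 0.60. For parental accelerated over high-to-low they spanned -0.58 to 1.36 for IGFBP2, -0.17 to 1.50 for IGFBP3, -0.77 to 0.51 for IGFBP6, -0.98 to 0.098 for IGFBP7, -0.19 to 0.43 for IGF2R and -0.012 to 0.36 for INSR. A fit without 1 library takes the lone library of its group to vary like the other groups. Counts of genes called over all genes moved by over 1.5 times in several settings, between 4 and 546 against parental accelerated cells and between 3 and 944 against high-to-low cells. INSR, IRS1 and IGFBP1 could not be tested under the stricter filter of 5 FPKM. Depth limits IGFBP4 and IGFBP5 most, with at most about 3.95 and 2.82 fragments. It also limits IGF1R, with about 11.1 to 55.6 fragments, and IGFBP7, with about 5.65 in parental accelerated replicate 2.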
